A study of Mus musculus with 5 samples.

Results

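The genes described here are 9 cytosolic heat shock proteins, Hspa1a, Hspa1b, Hspa8, Hsph1, Dnajb1, Dnajb5, Hsp90aa1, Hsp90ab1 and Hspb1, and the transcription factor Hsf1. They were selected by gene symbol from the count tables of mouse hippocampus after kainic acid seizures, and all 10 were found, out of 55385 genes counted. The selection pairs chaperones that cells make on demand with relatives that are made all the time.

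Heat shock proteins bind unfolded polypeptides, keep them from aggregating and help them to fold or to be degraded. HSP70 proteins work in cycles of ATP binding that J-domain proteins start and that HSP110 proteins, as nucleotide exchange factors, complete, and HSP90 proteins mature kinases and steroid receptors. Hsf1 is held inactive by chaperones in unstressed cells, and under stress it binds heat shock elements, arrays of inverted GAA units, in the promoters of inducible chaperone genes. In brain the constitutive family members are abundant in neurons, and the inducible HSP70 is known as a marker of cells under strain after seizures or ischemia.

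All animals were male C57/bl6 mice aged 3 months. The control library came from untreated mouse hippocampus, and the other libraries from hippocampi taken 1, 4 or 8 h after seizures began in mice given kainic acid, a glutamate receptor agonist, at 20 mg/kg into the peritoneum. By the study's methods only animals that reached stage 5 of a modified Racine scale were used, and the vehicle-injected mice of the study have no library here. There was 1 library each for the control, 1 h and 8 h and there were 2 for 4 h, called mouse 1 and mouse 2 below, although the sources do not state that a library held RNA of a single animal. If they do not come from separate animals, the p-values measure only the spread between these 2 libraries, which may be technical.

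Between 16612225 (8 h) and 19109204 (mouse 2) reads per library were counted on genes. Levels are given as CPM after TMM scaling (normalized CPM). Scaling by library size alone in place of TMM moved the median log2 ratio to the control over all genes by -0.18 in mouse 1 and by -0.07, -0.07 and 0.02 at 1 h, in mouse 2 and at 8 h. Intervals on single levels are exact Poisson and those on ratios and shares exact binomial (Clopper-Pearson), all at 95%, and they cover counting error only. A count of 3, used as a floor, was worth between 0.151 and 0.178 normalized CPM, and each of the 10 genes lay above it in every library and passed the expression filter, as did 19768 genes in all. Because the pair at 4 h alone was replicated, the tests take their spread from that pair, except the alternatives with an assumed coefficient of variation, and differences from the control at 1 h and 8 h have no replicate check of their own.

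The library of mouse 1 stood apart from the others in its markers of choroid plexus, the secretory epithelium of the ventricles. Transthyretin (Ttr), the most abundant of the 5 choroid plexus markers, had 3747 normalized CPM in the control, 1573 at 1 h, 16.3 in mouse 1, 3971 in mouse 2 and 2884 at 8 h. The other 4 markers, Folr1, Kl, Clic6 and Kcnj13, stood at 0.416, 9.26, 2.79 and 0.356 normalized CPM in mouse 1, against 36.5, 135, 90.7 and 33.9 in mouse 2. All 5 were thus lowest in mouse 1, by more than 2-fold against each other library, and 3 of them were also 2-fold below the control at 1 h. Sums over the list, in the same order of libraries, were 3995, 1692, 29.2, 4267 and 3091 normalized CPM. In tissue RNA, fewer cells of a type and less RNA per cell cannot be told apart.

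Mouse 1 also had the higher levels of activity-regulated genes, the transcripts that neuronal firing induces. The 8 genes of this list summed to 299 normalized CPM in the control, 5674 at 1 h, 4657 in mouse 1, 1483 in mouse 2 and 339 at 8 h, with Arc the most abundant. At 1 h and in mouse 1 all 8 were at least 2-fold above the control, while in mouse 2 this held for 4 of 8. Npas4, for example, was at 3.92 in the control, 694 at 1 h, 130 in mouse 1, 4.92 in mouse 2 and 5.13 at 8 h. By these genes mouse 2 stood closer to the control than mouse 1 did. Reads on no gene made up 24.7% of all reads in the control, 29.0% at 1 h, 33.1% in mouse 1, 25.3% in mouse 2 and 30.9% at 8 h.

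Summed markers of the other cell types varied less, although single ones differed. The 7 neuron markers, led by Map2, summed to between 5436 (8 h) and 6608 (mouse 1) normalized CPM, and the 5 endothelial and mural markers, led by Rgs5, to between 175 and 207. The 5 astrocyte markers, led by Slc1a3, summed to 993 in the control, 1084 at 1 h, 1603 in mouse 1, 1438 in mouse 2 and 1432 at 8 h, with Gfap at least 2-fold above the control in both mice and at 8 h. Microglia markers, led by Csf1r, summed to between 136 (mouse 1) and 171 (1 h), oligodendrocyte markers, led by Mbp, to between 2386 (8 h) and 3817 (mouse 2), and blood markers, led by Hbb-bs, to 113 at 1 h and 237 in mouse 1 as lowest and highest. In mouse 1 Prox1 and Gad1 of the neuron markers stood at 2.86 and 2.01 times the control (1.99 and 1.48 in mouse 2) and Rbfox3, Slc17a7 and Syt1 at 0.688, 0.791 and 0.925 times (0.692, 0.903 and 0.853), Hbb-bt and Alas2 of the blood markers at 2.24 and 2.09 times (1.08 and 1.21), and the microglia marker P2ry12 at 0.436 times (0.558). The part of cell composition, of RNA quality and of the stronger activity-regulated expression of mouse 1 in the levels of the heat shock genes was not tested. The sources do not state whether the dissection, handling or exact time after seizure onset of mouse 1 differed.

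**Figure D1:**
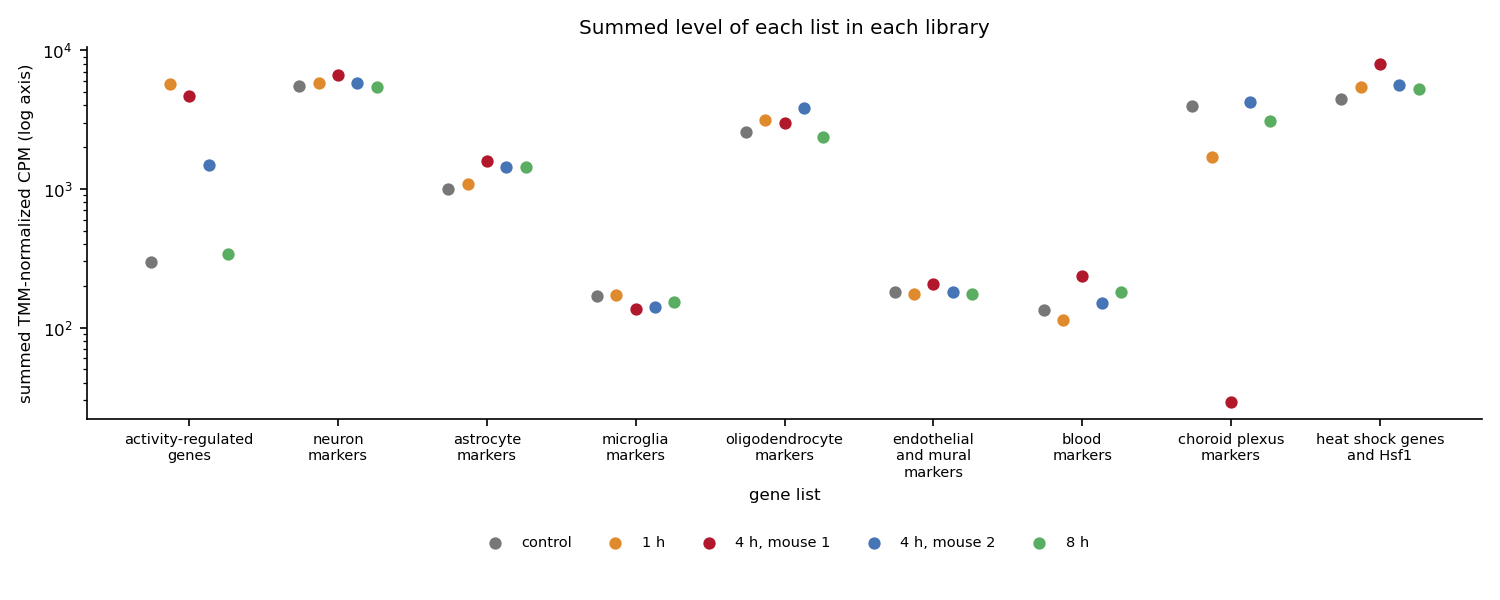
Summed TMM-normalized CPM (log axis) of the activity-regulated genes, of 7 cell type marker lists and of the 9 heat shock genes with Hsf1, with 1 point per library. Choroid plexus markers summed to 29.2 in mouse 1 at 4 h and to between 1692 and 4267 in the other 4 libraries.

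The genes of the 10 that passed a 2-fold line above the control were not the same at each time point. At 8 h this turned on small differences, with Hspb1, Hsph1 and Dnajb5 at 2.05, 2.03 and 1.82 times the control in 1 library. At 1 h, 2 of 10 genes were at least 2-fold above the control (Dnajb1 and Dnajb5), and 5.41% of the 19768 genes tested were. At 4 h, 2 of 10 were so in both mice (Hsph1 and Dnajb5; 4.96% of all genes), and at 8 h again 2 of 10 (Hspb1 and Hsph1; 6.79%). None of the 10 was 2-fold below the control at 1 h, in both mice at 4 h or at 8 h, where 3.8%, 1.51% and 3.37% of all genes were. Counts over 10 genes rest on single genes and were not tested against these shares, and the 3 comparisons share the control library.

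Taken 1 library at a time, mouse 1 had 6 of the 10 genes at least 2-fold above the control (Hspa1a, Hspa1b, Hspb1, Hsph1, Dnajb1 and Dnajb5), where 11.9% of all genes were, and mouse 2 had 2 of 10 (Hsph1 and Dnajb5), where 6.59% were. The 10 genes had a median log2 fold change of 0.29, 1.44 and 0.45 at 1, 4 and 8 h, beside -0.01, 0.01 and 0.01 over all genes tested. The value at 4 h rested on mouse 1, since the median log2 ratio of the 10 genes to the control was 1.96 in mouse 1 and 0.16 in mouse 2. Summed over the 10, the level was 4426 normalized CPM in the control, 5410 at 1 h, 7976 in mouse 1, 5639 in mouse 2 and 5256 at 8 h, or 0.461%, 0.536%, 0.736%, 0.558% and 0.555% of all counts on genes. Hspa8, Hsp90aa1 and Hsp90ab1 together held 89.6% of that sum in the control and 76.3% in mouse 1.

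None of the 10 genes passed the test across all genes at any time point. In edgeR's quasi-likelihood test the lowest Benjamini-Hochberg adjusted p among them was 1 at 1 h, 0.242 at 4 h (Dnajb5) and 1 at 8 h. Over all genes that test called 0 at 1 h (0%), 1 at 4 h (0.00506%, ETV3L) and 0 at 8 h (0%), DESeq2 called 56, 238 and 33, and limma-voom called 0 at each. Before adjustment, 1, 3 and 2 of the 10 genes and 478, 2291 and 892 of all genes had a p under 0.05 at the 3 time points. Of the 10, DESeq2 called Dnajb5 at 1 h (adjusted p = 0.0459) and Dnajb5 and Hsph1 at 4 h (adjusted p = 4.81e-08 and 0.00097, Benjamini-Hochberg). Over all alternatives the adjusted p (Benjamini-Hochberg, edgeR, DESeq2 or limma) ran from 4.55e-07 to 1 for Dnajb5 at 1 h, from 3.31e-19 to 0.552 for Dnajb5 at 4 h and from 2.44e-11 to 1 for Hsph1 at 4 h. Hspa1a, Hspa1b, Hspb1, Hsp90aa1 and Dnajb1 were also called under an alternative at 1 or more time points, and Hspa8, Hsp90ab1 and Hsf1 under none.

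Hspa1a and Hspa1b encode the stress-inducible cytosolic HSP70, from neighbouring intronless genes on chromosome 17. Hspa1a (ENSMUSG00000091971.3) lies at chr17:34969190-34972156 and Hspa1b (ENSMUSG00000090877.3) at chr17:34956436-34959238, both on the minus strand of GRCm38 and both with 1 annotated exon. Just upstream of their starts the genes are nearly the same, with 247 of 250 bases identical in the windows of the RefSeq promoter table (GRCm38.p6, minus strand). The 130 bases before each start are shown (chr17:34972157-34972286 and chr17:34959239-34959368), 5′ to 3′, because both hold a heat shock element of 2 units, GAANNTTC, in capitals, which starts 104 bases before the annotated start.
Hspa1a: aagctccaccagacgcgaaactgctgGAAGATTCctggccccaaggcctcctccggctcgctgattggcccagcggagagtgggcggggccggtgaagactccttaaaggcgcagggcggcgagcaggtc
Hspa1b: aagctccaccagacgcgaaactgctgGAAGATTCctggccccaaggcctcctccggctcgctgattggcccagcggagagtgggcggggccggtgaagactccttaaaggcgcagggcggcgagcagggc

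The control library held 96 reads on Hspa1a, the 1 h library 141, those of mouse 1 and mouse 2 1576 and 95, and the 8 h library 133. As normalized CPM this is 4.82 (interval 3.91 to 5.89), 8.02 (6.75 to 9.46), 93.6 (89 to 98.3), 5.02 (4.06 to 6.14) and 7.59 (6.35 to 8.99). Mouse 1 was far above the other 4 libraries, and the intervals of mouse 2 and the control overlapped, so that the 4 h group ran from near the control level to above every other library. The ratio to the control was 19.4 (15.8 to 24.1) in mouse 1 and 1.04 (0.776 to 1.4) in mouse 2, and it was 1.66 (1.27 to 2.18) at 1 h and 1.57 (1.2 to 2.07) at 8 h.

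The neighbouring Hspa1b was also highest in mouse 1, with counts, in the same order of libraries, of 134, 141, 1790, 139 and 187. Its normalized CPM were 6.73, 8.02, 106 (101 to 111), 7.35 (6.18 to 8.68) and 10.7 (9.19 to 12.3). Again 1 library was high and the other 4 were low. Relative to the control, Hspa1b stood at 15.8 (13.2 to 19) in mouse 1, at 1.09 (0.855 to 1.39) in mouse 2 and at 1.58 (1.26 to 1.99) at 8 h.

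The fit over all genes gave log2 fold changes at 4 h of 3.32 (SE 1.68) for Hspa1a and 3.06 (SE 1.54) for Hspa1b, with a Benjamini-Hochberg adjusted p of 0.505 and 0.504 in edgeR's quasi-likelihood test. Among the alternatives, no filter on low counts and an assumed coefficient of variation of 0.2 called both genes at 4 h, and the same coefficient at 0.4 called Hspa1a, with an adjusted p (Benjamini-Hochberg, edgeR, DESeq2 or limma) from 3.86e-20 to 0.915 for Hspa1a and from 4.48e-19 to 0.93 for Hspa1b. The size at 4 h also depended on the method, since limma-voom gave 2.10 and 2.01 for Hspa1a and Hspa1b (Benjamini-Hochberg adjusted p of 0.738 and 0.717). Without mouse 1 the values at 4 h were 0.06 and 0.13, and without mouse 2 they were 4.25 and 3.96, so that 1 library set both. The log2 fold changes at 1 h, 0.72 and 0.25 (SE 1.71 and 1.58), and at 8 h, 0.64 and 0.66 (SE 1.72 and 1.57), were smaller than their errors. The genes share sequence, since 50.9% of the read-length windows of the Hspa1a transcript and 44.8% of those of Hspa1b occur in other annotated genes, of which each shared most windows with the other. Reads that aligned more than once were not counted on any gene, and summing the pair does not restore them. Counts of both genes may therefore be too low. Summed as 1 gene they had counts of 230, 282, 3366, 234 and 320 in the same order of libraries, with a log2 fold change at 4 h of 3.19 (SE 1.59, adjusted p = 0.501 in edgeR's quasi-likelihood test, Benjamini-Hochberg). Gm20481 on the opposite strand covers 19% of the exon of Hspa1a. By the study's methods the libraries were stranded, but the strand setting of the counting is not given. Whether reads in the overlap were counted on Hspa1a, on Gm20481 or set aside as ambiguous is not known.

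Hspa8 (ENSMUSG00000015656.17, chr9:40800984-40810087, plus strand) encodes the constitutive HSP70, Hsc70, which also uncoats clathrin vesicles at synapses. Its level was 1728 normalized CPM in the control (34399 counts), 2101 at 1 h, 2893 in mouse 1, 1902 in mouse 2 and 1941 at 8 h. All 4 libraries after seizures were above the control, by a ratio between 1.1 (1.08 to 1.12) in mouse 2 and 1.67 (1.65 to 1.7) in mouse 1. This spread at 4 h took in the libraries of 1 h and 8 h. At 1, 4 and 8 h the log2 fold change was 0.28, 0.47 and 0.17 (SE 0.32, 0.28 and 0.32), with an adjusted p of 0.566 at 4 h (edgeR's quasi-likelihood test, Benjamini-Hochberg). Of its read-length windows 59.1% occur in another annotated gene, mainly Gm26825, and exons of the snoRNA genes Snord14c, Snord14d and Snord14e cover 6.09% of its exon length on the same strand.

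Hsph1 (ENSMUSG00000029657.15, chr5:149614287-149636376, minus strand) encodes HSP105, an HSP110 protein that exchanges nucleotides on HSP70 and takes part in dissolving aggregates. The RefSeq table has 2 starts for it. From the one further upstream a 2-unit element, TTCNNGAA, begins 33 bases upstream and a 3-unit element, TTCNNGAANNTTC, at base 37 downstream, and from the other they begin 54 bases upstream and at base 16 downstream. The GENCODE start lies 40 bases upstream of the first, inside whose exon both elements fall, and only 30 bases around each are shown (GRCm38.p6, minus strand, chr5:149636351-149636380 and chr5:149636287-149636316, elements in capitals).
Hsph1 upstream: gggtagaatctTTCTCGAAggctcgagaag
Hsph1 downstream: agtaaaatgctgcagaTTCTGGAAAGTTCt

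The level of Hsph1 was 270 (263 to 277) normalized CPM in the control and 347 (338 to 356) at 1 h, 940 (926 to 955) in mouse 1, 583 (572 to 594) in mouse 2 and 547 (536 to 558) at 8 h. Both mice at 4 h and the library at 8 h lay above the control and above 1 h, and the lower of the pair, mouse 2, was close to 8 h. Ratios to the control were 1.29 at 1 h, 3.48 (3.38 to 3.59) in mouse 1, 2.16 (2.09 to 2.23) in mouse 2 and 2.03 (1.96 to 2.1) at 8 h. The log2 fold change of 1.5 at 4 h had an SE of 0.32 and ranged from 1.11 without mouse 1 to 1.80 without mouse 2, and that at 8 h was 1.02 (SE 0.35). In edgeR's quasi-likelihood test the Benjamini-Hochberg adjusted p was 0.279 at 4 h and 1 at 8 h, where among the alternatives no filter alone called Hsph1 (Benjamini-Hochberg adjusted p with edgeR, DESeq2 or limma from 0.000996 to 1).

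Dnajb1 and Dnajb5 encode J-domain proteins of the same class, which deliver unfolded clients to HSP70 and start its ATPase, and of which Dnajb1, or HSP40, is the classic heat-inducible one. Dnajb1 (ENSMUSG00000005483.10) lies at chr8:83608193-83612653 and Dnajb5 (ENSMUSG00000036052.14) at chr4:42949814-42959425, both on the plus strand. The 130 bases before the first of 2 RefSeq starts of Dnajb1 (chr8:83608045-83608174, plus strand, GRCm38.p6) are shown for comparison with Hspa1a. Neither 2-unit element was found in the promoter windows of Dnajb1 or Dnajb5, which says only that these letters are not in the windows.
Dnajb1: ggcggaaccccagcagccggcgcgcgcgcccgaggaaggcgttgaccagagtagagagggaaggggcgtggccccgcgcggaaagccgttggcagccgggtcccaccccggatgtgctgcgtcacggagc

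Dnajb1 was at 48.6 (45.6 to 51.8) normalized CPM in the control, 179 (173 to 186) at 1 h, 213 (206 to 220) in mouse 1, 41.2 (38.4 to 44.2) in mouse 2 and 41.6 (38.6 to 44.7) at 8 h. The values split into a high level at 1 h and in mouse 1 and a low level in the control, in mouse 2 and at 8 h, so that the mice at 4 h lay on opposite sides of the control. The ratio to the control was 3.69 (3.43 to 3.97) at 1 h, 4.38 (4.08 to 4.7) in mouse 1, 0.848 (0.771 to 0.933) in mouse 2 and 0.855 (0.776 to 0.942) at 8 h. Its log2 fold change at 1, 4 and 8 h was 1.88, 1.38 and -0.23 (SE 1.02, 0.91 and 1.00), with an adjusted p of 1, 0.599 and 1 in edgeR's quasi-likelihood test (Benjamini-Hochberg). No filter and an assumed coefficient of variation of 0.2 called Dnajb1 at 1 h and 4 h, and over the alternatives the adjusted p (Benjamini-Hochberg, edgeR, DESeq2 or limma) ran from 7.28e-12 to 1 and from 6.89e-08 to 1. At 4 h the value was 0.93 with limma-voom, 2.13 without mouse 2 and -0.23 without mouse 1, which turned its direction.

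Dnajb5 differed from Dnajb1 in that both mice at 4 h were high. The control had 101 (96.4 to 105) normalized CPM of Dnajb5, followed by 258 (251 to 266) at 1 h, 487 (476 to 497) in mouse 1, 345 (337 to 353) in mouse 2 and 183 (177 to 189) at 8 h. Every library after seizures lay above the control, the pair at 4 h highest, then 1 h, then 8 h. The corresponding ratios to the control were 2.57 (2.43 to 2.7), 4.83 (4.6 to 5.07), 3.42 (3.26 to 3.6) and 1.82 (1.72 to 1.92). With log2 fold changes of 1.36, 2.04 and 0.86 (SE 0.28, 0.27 and 0.28), Dnajb5 had the lowest unadjusted p of the 10 genes at each time point, and the Benjamini-Hochberg adjusted p of edgeR's quasi-likelihood test was 1, 0.242 and 1. At 8 h no filter alone called it among the alternatives (Benjamini-Hochberg adjusted p with edgeR, DESeq2 or limma from 0.0207 to 1). Its value at 4 h lay between 1.78 and 2.27 when a mouse was left out.

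Hsp90aa1 and Hsp90ab1 encode the inducible alpha and the constitutive beta form of cytosolic HSP90. Hsp90aa1 (ENSMUSG00000021270.13, chr12:110690605-110702728, minus strand) was at 929 (916 to 942) normalized CPM in the control, 1137 (1122 to 1153) at 1 h, 1762 (1742 to 1782) in mouse 1, 1245 (1229 to 1261) in mouse 2 and 1105 (1090 to 1121) at 8 h. All 4 libraries after seizures were above the control, and both mice at 4 h were above 1 h and 8 h. Against the control the ratio was 1.22 at 1 h, 1.9 (1.86 to 1.93) in mouse 1, 1.34 (1.31 to 1.37) in mouse 2 and 1.19 at 8 h. For 4 h the fit gave a log2 fold change of 0.69 (SE 0.25) and a Benjamini-Hochberg adjusted p of 0.408 in edgeR's quasi-likelihood test, and among the alternatives no filter alone called it (Benjamini-Hochberg adjusted p with edgeR, DESeq2 or limma from 0.00908 to 1). Windows shared with another gene, mainly Gm12346, made up 41.3% of its transcript.

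The beta form, Hsp90ab1 (ENSMUSG00000023944.14, chr17:45567775-45573271, minus strand), had 1307 (1292 to 1323) normalized CPM in the control, 1341 (1324 to 1358) at 1 h, 1431 (1413 to 1449) in mouse 1, 1480 (1463 to 1498) in mouse 2 and 1385 (1367 to 1402) at 8 h. The 5 libraries lay within 1.13-fold of each other, the narrowest range of the 10 genes, and Hsp90ab1 was the 1 gene of the 10 that was lower in mouse 1 than in mouse 2. Its log2 fold change at 1, 4 and 8 h was 0.04, 0.16 and 0.08 (SE 0.19, 0.16 and 0.19), and scaling by library size alone turned the value at 1 h to -0.04.

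Hspb1 (ENSMUSG00000004951.10, chr5:135887919-135889563, plus strand) encodes HSP27 (Hsp25 in the mouse), a small heat shock protein that holds unfolded proteins without ATP and is known in reactive astrocytes. The 130 bases before its start (chr5:135887789-135887918, plus strand, RefSeq, GRCm38.p6) are shown because they hold 2 copies of GAANNTTC, in capitals, which begin 117 and 97 bases upstream.
Hspb1: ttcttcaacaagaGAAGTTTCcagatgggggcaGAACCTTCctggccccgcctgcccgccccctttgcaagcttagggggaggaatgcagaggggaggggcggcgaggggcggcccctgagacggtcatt

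Hspb1 was the least abundant of the 10 genes by count in the control. From control to 8 h, in the order used above, its counts were 78, 80, 287, 104 and 141, or 3.92 (3.1 to 4.89), 4.55 (3.61 to 5.66), 17 (15.1 to 19.1), 5.5 (4.49 to 6.66) and 8.04 (6.77 to 9.49) normalized CPM. Mouse 1 was highest and 8 h next, while the intervals of the control, 1 h and mouse 2 overlapped. The ratio to the control was 4.35 (3.38 to 5.66) in mouse 1, 1.4 (1.04 to 1.91) in mouse 2 and 2.05 (1.55 to 2.74) at 8 h. Its log2 fold change at 4 and 8 h was 1.5 and 1.02 (SE 0.72 and 0.79), with a Benjamini-Hochberg adjusted p of 0.485 and 1 in edgeR's quasi-likelihood test, and the value at 4 h was 0.48 without mouse 1. No filter and an assumed coefficient of variation of 0.2 called Hspb1 at 4 h, where the adjusted p (Benjamini-Hochberg, edgeR, DESeq2 or limma) over the alternatives ran from 0.00855 to 1. The pseudogene Hsp25-ps1 and 1 other gene share 38.6% of its read-length windows.

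Hsf1 itself (ENSMUSG00000022556.11, chr15:76477422-76501913, plus strand) was at 26.7 (24.5 to 29) normalized CPM in the control, 25.4 (23.1 to 27.8) at 1 h, 32.5 (29.8 to 35.3) in mouse 1, 24.7 (22.5 to 27) in mouse 2 and 26.8 (24.4 to 29.3) at 8 h. Mouse 1 alone lay outside the overlapping intervals of the other 4 libraries, at 1.22 (1.08 to 1.37) times the control. Its log2 fold change at 1, 4 and 8 h was -0.07, 0.10 and 0.01 (SE 0.30, 0.26 and 0.30), and the sign at 4 h turned with scaling by library size alone (-0.03) and without mouse 1 (-0.11), and at 8 h without a filter on low counts (-0.01). Counts of its transcript do not measure activation of the protein, which takes place by release from chaperones, trimerization and phosphorylation.

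**Figure D2:**
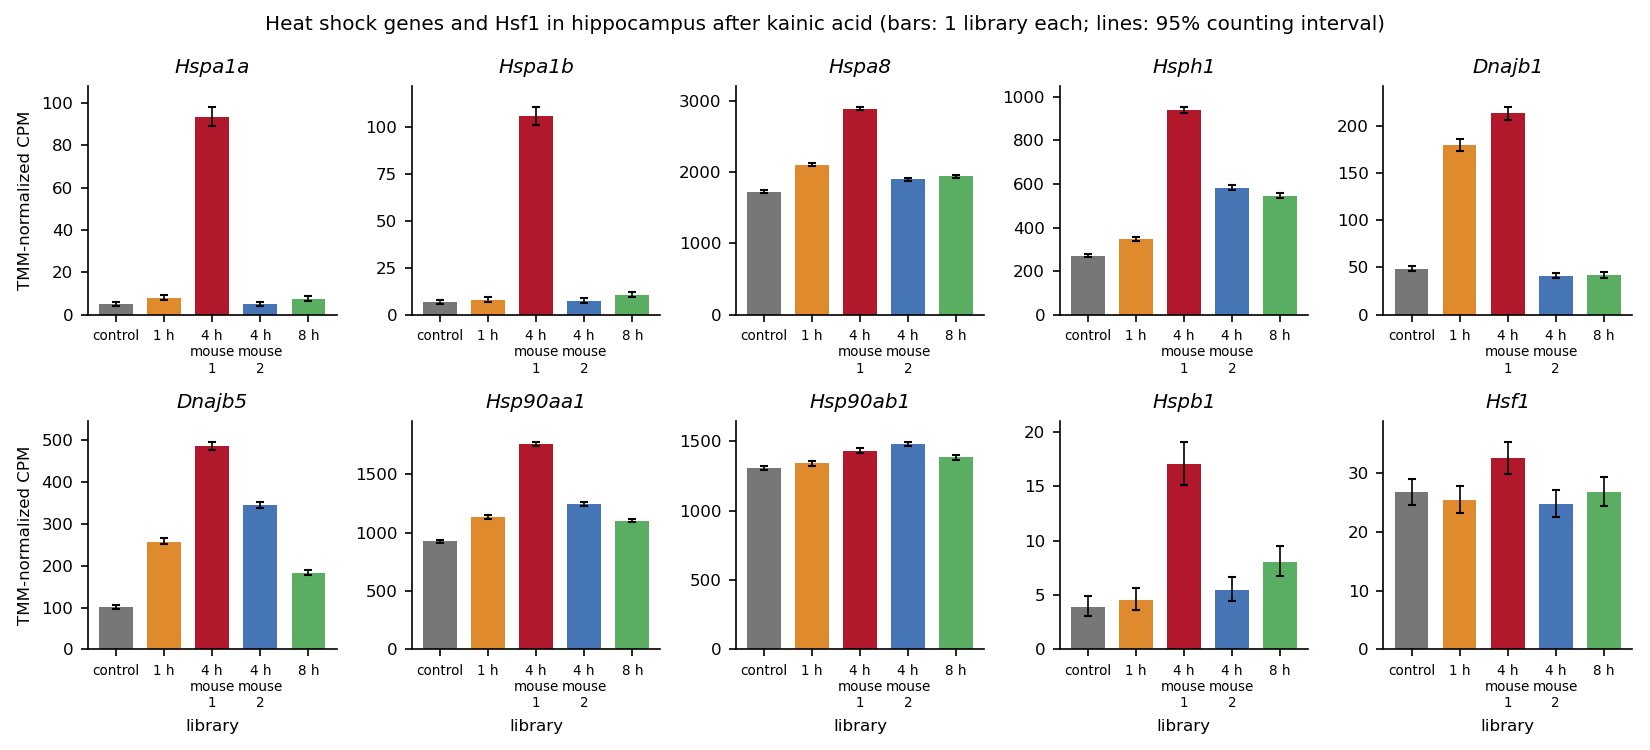
TMM-normalized CPM of the 9 heat shock genes and Hsf1 in each of the 5 libraries, with exact Poisson 95% intervals and a linear axis from 0 in each panel. Hspa1a and Hspa1b reached 93.6 and 106 in mouse 1 at 4 h and at most 8.02 and 10.7 elsewhere, Dnajb5 and Hsph1 were above the control in both mice at 4 h, and Hsp90ab1 stayed between 1307 and 1480.

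The balance of inducible against constitutive forms of HSP70 and HSP90 was read from shares of counts within a family. The J-domain pair was read the same way, although Dnajb5 itself stood above the control in every library after seizures. Hspa1a and Hspa1b together made up 0.664% (0.581 to 0.755) of the counts on Hspa1a, Hspa1b and Hspa8 in the control, 0.758% at 1 h, 6.46% (6.25 to 6.68) in mouse 1, 0.646% (0.566 to 0.734) in mouse 2 and 0.932% (0.833 to 1.04) at 8 h. Even in mouse 1, then, the constitutive gene held most HSP70 counts. After division by the length of all annotated exons the inducible pair had 9.36% in mouse 1 and 0.992% in the control. Per kb of the longest annotated coding transcript the share of the pair is lower. By that length Hspa1a, Hspa1b and Hspa8 had 31.5, 37.9 and 1209 normalized CPM in mouse 1, and 1.63, 2.4 and 722 in the control. Hsp90aa1 made up 41.5% (41.1 to 42) of the HSP90 counts in the control, 45.9% at 1 h, 55.2% (54.8 to 55.6) in mouse 1, 45.7% (45.2 to 46.1) in mouse 2 and 44.4% at 8 h. Every library after seizures had a higher HSP90 alpha share than the control, and per exon length these shares were 35.2%, 39.3%, 48.4%, 39.1% and 37.8%. Dnajb1 held 32.6% (30.9 to 34.3) of the counts on the J-domain pair in the control, 41% at 1 h, 30.4% in mouse 1, 10.7% (9.98 to 11.4) in mouse 2 and 18.5% at 8 h, so the low share of mouse 2 came with a Dnajb5 level well above the control and a Dnajb1 level below it. Per exon length the Dnajb1 shares in that order were 47.2%, 56.2%, 44.8%, 18.1% and 29.6%. By exon length Dnajb1 was thus the larger of the pair at 1 h, and by counts the smaller. Per kb of the longest annotated coding transcript Dnajb1 was also the smaller at 1 h, at 59.9 normalized CPM against 78.3 for Dnajb5. These shares were not tested. Reads that aligned more than once were not counted, and the genes differ in the windows they share with other genes. Such windows made up 50.9%, 44.8% and 59.1% for Hspa1a, Hspa1b and Hspa8, 41.3% for Hsp90aa1 and 0% for Hsp90ab1. The size of the HSP70 and HSP90 shares may therefore be off by more than the intervals, which cover counting error only.

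**Figure D3:**
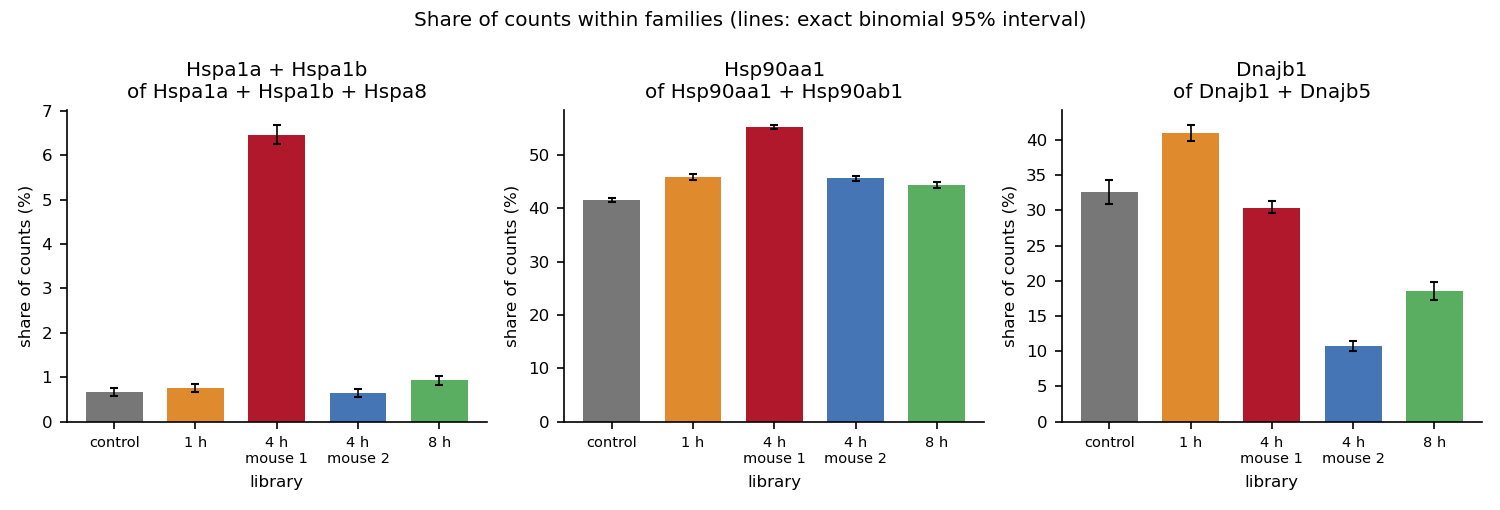
Share of counts (%) of Hspa1a and Hspa1b among the HSP70 genes shown, of Hsp90aa1 among the HSP90 genes and of Dnajb1 among Dnajb1 and Dnajb5, in each library, with exact binomial 95% intervals. The HSP70 share was 6.46% in mouse 1 at 4 h and between 0.646% and 0.932% in the other libraries, and the HSP90 alpha share was lowest in the control, at 41.5%.

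Levels of different genes were compared per kilobase, by the length of all annotated exons and by that of the longest annotated coding transcript, since the counts do not show which transcripts were made. In the control the normalized CPM per kb of exons were 436 for Hsp90ab1, 402 for Hspa8, 236 for Hsp90aa1, 37.1 for Hsph1, 17 for Dnajb5, 15.2 for Dnajb1, 3.8 for Hspb1, 3.76 for Hsf1, 2.4 for Hspa1b and 1.63 for Hspa1a. Per kb of transcript, Hspa8 (722) stood above Hsp90ab1 (519) and Hsf1 (12.7) above Hspb1 (4.21), so the order within these pairs depended on the length used, and 59.1% of the windows of Hspa8 but none of those of Hsp90ab1 are shared with other genes. By both lengths Hsp90ab1, Hspa8 and Hsp90aa1 stood above the other 7 genes in every library, and Hspa1a was lowest in all but mouse 1. In mouse 1, per kb of exons, Hspa1b (37.9) and Hspa1a (31.5) stood above Hspb1 (16.5) and Hsf1 (4.58) and below Dnajb1 (66.4), Dnajb5 (82) and Hsph1 (129), and this order was the same per kb of transcript. Over the 2 mice at 4 h, per kb of exons, Hspa8 (442 to 673) overlapped Hsp90ab1 (477 to 494) and Hsp90aa1 (317 to 448), Hsph1 (80.2 to 129) overlapped Dnajb5 (58.1 to 82), and Dnajb5 overlapped Dnajb1 (12.9 to 66.4). Per kb of transcript none of these overlapped, with 795 to 1209 for Hspa8, 568 to 587 for Hsp90ab1, 379 to 537 for Hsp90aa1, 153 to 247 for Hsph1, 104 to 147 for Dnajb5 and 13.8 to 71 for Dnajb1. By both lengths the range of Hsf1 at 4 h lay within those of Hspa1a and Hspa1b, whose place among the low genes differed between the mice.

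The mice at 4 h differed unevenly among the 10 genes. Mouse 1 had 18.6 (15.1 to 23.2) times the Hspa1a level of mouse 2, 14.5 (12.2 to 17.3) times for Hspa1b, 5.16 (4.77 to 5.58) times for Dnajb1 and 3.1 (2.47 to 3.92) times for Hspb1. For Hsph1, Hspa8, Hsp90aa1, Dnajb5 and Hsf1 the ratio lay between 1.32 and 1.61, and for Hsp90ab1 it was 0.967 (0.95 to 0.984). At least 2-fold higher in mouse 1 than in mouse 2 were 4 of the 10 genes and 7.23% of all genes, and 2-fold lower were 0 of 10 and 4.84%. At any size, 9 of 10 genes were higher in mouse 1, where 51% of all genes were. With 1 library on each side this compares these libraries and not conditions.

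**Figure D4:**
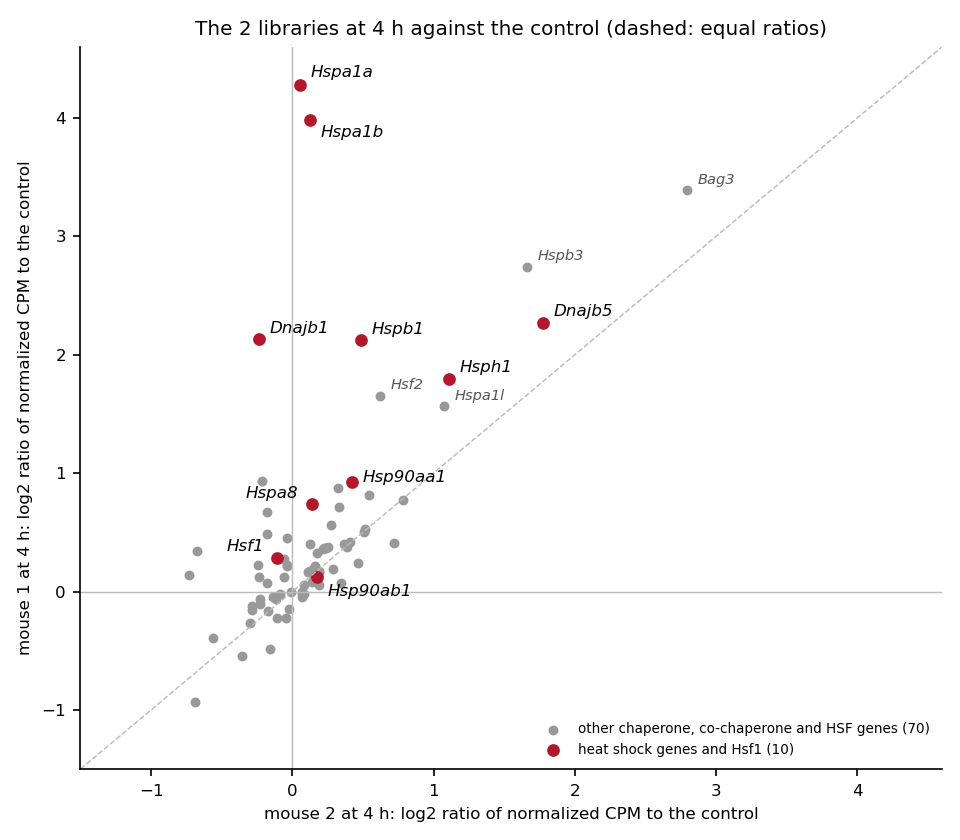
Log2 ratio of normalized CPM to the control in mouse 1 (vertical axis) and mouse 2 (horizontal axis) at 4 h, for the 10 genes (red) and 70 other chaperone, co-chaperone and HSF genes (grey), which share the control library on both axes. Hspa1a and Hspa1b lay at 4.28 and 3.98 in mouse 1 and at 0.06 and 0.13 in mouse 2, while Dnajb5 (2.27 and 1.78) and Hsph1 (1.80 and 1.11) were raised on both axes.

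To place the 10 genes among related ones, 72 other chaperone, co-chaperone and HSF genes in 9 lists were read the same way, and 70 of them passed the expression filter (Hspb2 and Hspb7 did not). None of the 70 passed edgeR's quasi-likelihood test at an adjusted p under 0.05 (Benjamini-Hochberg) at any time point. At an unadjusted p under 0.05, 4 were higher and 0 lower than the control at 1 h (2.1% and 0.319% of all genes), 7 higher and 2 lower at 4 h (7.21% and 4.38%), and 0 higher and 2 lower at 8 h (2.39% and 2.12%). Their median log2 fold change at 1, 4 and 8 h was 0.03, 0.14 and 0.08, below the medians of the 10 genes. By mouse at 4 h, the median log2 ratio to the control of the 70 was 0.18 in mouse 1 and 0.10 in mouse 2, where the 10 genes had 1.96 and 0.16. At least 2-fold above the control were 3 of 70 at 1 h (Hspa14, Bag3 and Hspa1l), 3 of 70 in both mice at 4 h (Bag3, Hspa1l and Hspb3) and 1 of 70 at 8 h (Hspb3), and none was 2-fold below it, where of all tested genes 5.41%, 4.96% and 6.79% were at least 2-fold higher and 3.8%, 1.51% and 3.37% at least 2-fold lower.

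Bag3, which links HSP70 to small heat shock proteins and to autophagy, had the highest ratio to the control of these genes in both mice, with 3.67 normalized CPM in the control, 7.68 at 1 h, 38.4 in mouse 1, 25.4 in mouse 2 and 6.73 at 8 h. Its pattern was that of Dnajb5 and Hsph1, high in both mice, and not that of Hspa1a. The ratio to the control was 10.5 in mouse 1 and 6.94 in mouse 2, and the fit gave a log2 fold change of 3.08 at 4 h (SE 0.39), with a Benjamini-Hochberg adjusted p of 0.242 in edgeR's quasi-likelihood test. Among the other nucleotide exchange factors, Bag4 and Bag1 lay between 0.937 and 1.31 times the control in all libraries, and the list of 6 had medians of 0.03, 0.26 and -0.00 (0.29 in mouse 1 and 0.27 in mouse 2).

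Hspa14, a ribosome-associated HSP70, had 27 normalized CPM in the control, 69.3 at 1 h, 38.8 in mouse 1, 38.6 in mouse 2 and 27.8 at 8 h, and was thus highest at 1 h with close values in the pair. Hspa1l, next to Hspa1a on chromosome 17, had counts of 4, 8, 10, 8 and 5 in the order of libraries used above, and the interval of each ratio included 1 (0.852 to 12.9 in mouse 1). Hspb3 had counts of 3, 5, 17, 9 and 15, with ratios of 6.7 (1.94 to 35.7) in mouse 1, 3.16 (0.788 to 18.1) in mouse 2 and 5.68 (1.61 to 30.6) at 8 h. Neither of these low genes met the level set for naming, and they were named after their values were seen. Hspa4 and Hspa4l, which had the highest mean CPM over the 5 libraries among the other cytosolic HSP70 and HSP110 genes, lay between 1.21 and 1.76 and between 0.885 and 1.37 times the control, and the medians of that list of 7 were 0.14, 0.23 and -0.18 (0.45 in mouse 1 and -0.04 in mouse 2). Hspa12a, named after its values were seen, had 324 normalized CPM in the control, 307 at 1 h, 246 in mouse 1, 220 in mouse 2 and 204 at 8 h.

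Hsf2, a further heat shock factor, was at 36.8 normalized CPM in the control, 31.4 at 1 h, 116 in mouse 1, 56.5 in mouse 2 and 38 at 8 h. Both mice lay above the other libraries, at 3.15 and 1.54 times the control, where Hsf1 was at 1.22 and 0.926. For Hsf2 at 4 h the fit gave 1.23 (SE 0.45), with a Benjamini-Hochberg adjusted p of 0.406 in edgeR's quasi-likelihood test. Hsbp1, a negative regulator of Hsf1 by its textbook role, lay between 0.955 and 1.05 times the control. Medians were -0.06, -0.10 and -0.01 for the 4 other HSF family genes and regulators (0.05 in mouse 1 and -0.11 in mouse 2).

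The remaining lists held no tested gene 2-fold from the control besides Hspb3. The 14 HSP90 co-chaperones had a median log2 fold change of -0.01, 0.07 and 0.09 at 1, 4 and 8 h (0.19 in mouse 1 and 0.08 in mouse 2), with St13 and Stip1 the highest by mean CPM. The 9 other cytosolic J-domain proteins had medians of 0.14, 0.18 and -0.08 (0.21 and 0.09 in the mice), and Dnajb4, a close relative of Dnajb1 named here after its values were seen, had 58.6 normalized CPM in the control, 89.9 at 1 h, 112 in mouse 1, 50.6 in mouse 2 and 50.4 at 8 h, and was thus high at 1 h and in mouse 1 as Dnajb1 was, with a smaller span. The 8 subunits of the cytosolic chaperonin TRiC had medians of 0.03, 0.24 and 0.13 (0.26 and 0.20 in the mice) and the 7 mitochondrial chaperones -0.04, 0.12 and -0.03 (0.21 and -0.02). For the 11 chaperones of the endoplasmic reticulum the medians were 0.12, 0.03 and 0.23 (-0.00 and -0.09 in the mice), and Hspa5, the HSP70 of that compartment, had 351 normalized CPM in the control, 663 at 1 h, 557 in mouse 1, 310 in mouse 2 and 445 at 8 h. Of the small heat shock proteins tested besides Hspb1, Cryab, the most abundant, lay between 43.7 and 53.2 normalized CPM in all libraries, and the medians of these 4 were -0.09, 0.47 and 0.36 (0.42 and 0.56 in the mice).

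**Figure D5:**
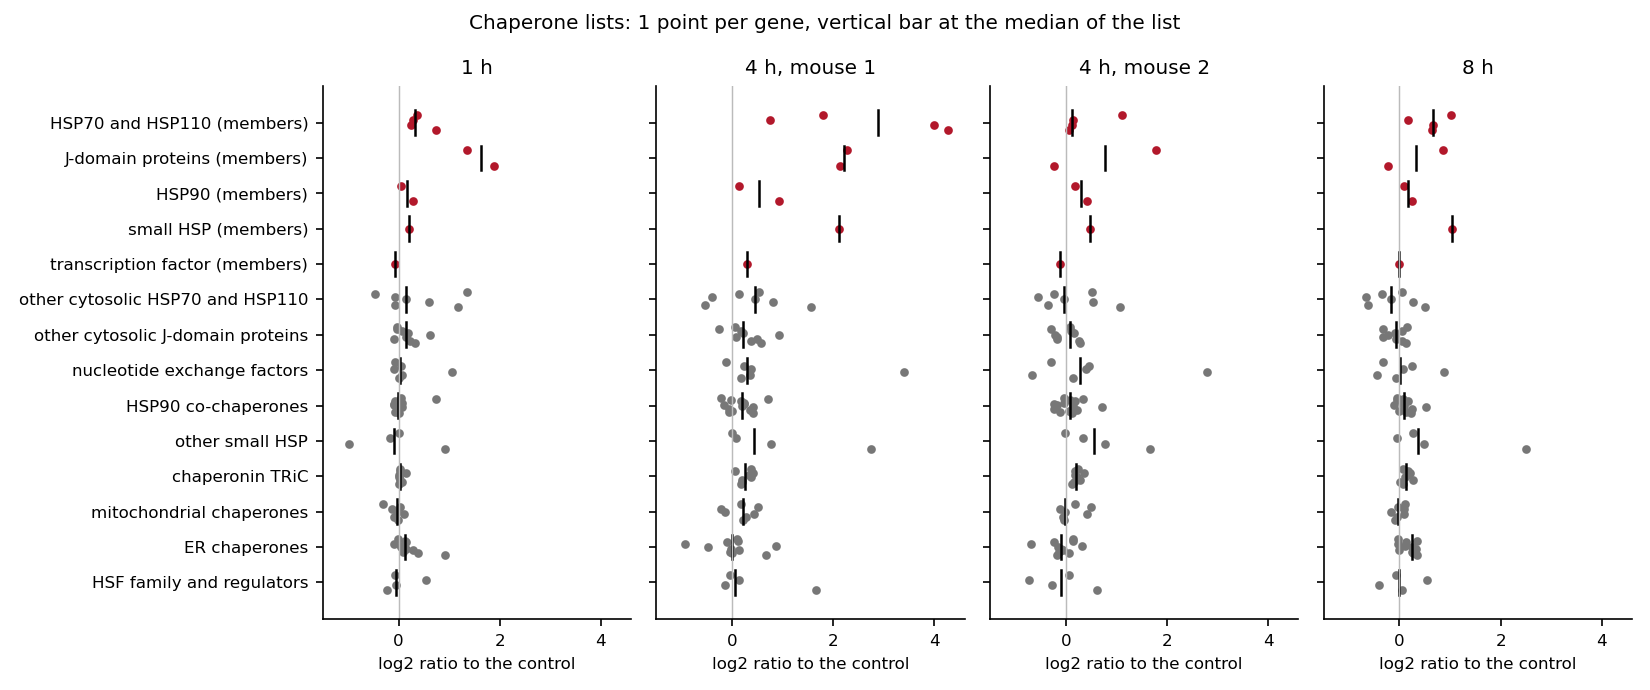
Log2 ratio of normalized CPM to the control for each gene of the 5 member classes (red) and of 9 other chaperone lists (grey) in the 4 libraries after seizures, with a vertical bar at the median of each list. Points right of 2 in mouse 1 at 4 h were Hspa1a, Hspa1b, Hspb1, Dnajb1 and Dnajb5 among the 10 genes and Bag3 and Hspb3 among the others.

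For the 3 genes with the widest range over the 5 libraries, Hspa1a (19.4-fold), Hspa1b (15.8-fold) and Dnajb1 (5.16-fold), the nearest patterns were sought among 14297 other genes by the Euclidean distance of the 4 log2 ratios to the control. For Hspa1a the nearest gene was Hspa1b, at a distance of 0.56, followed by Gm47664 at 1.18 and Magoh at 1.39. Magoh had 13.1 normalized CPM in the control, 24.9 at 1 h, 130 in mouse 1, 25.5 in mouse 2 and 15.2 at 8 h, and Gm47664 had 0.955, 1.37, 11.7, 1.8 and 1.2. All of these were high in mouse 1 and lower elsewhere. For Hspa1b the nearest after Hspa1a were Gm47664 at 0.96 and G530011O06Rik at 1.28. The patterns nearest to Dnajb1 were Ier3 at 0.44, Rnf217 at 0.47 and Gm37407 at 0.53, of which Rnf217 had 37.8 normalized CPM in the control, 126 at 1 h, 123 in mouse 1, 34.3 in mouse 2 and 30.6 at 8 h. These distances rest on 4 libraries that share 1 control.

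Heat shock elements were also counted over all promoters. The RefSeq table gives 32851 windows of 27025 genes, each from 250 bases before to 50 after a start, and holds 6 of the 10 genes. Hspa8, Hsp90aa1, Hsp90ab1 and Hsf1 have no entry. GAANNTTC was found in 7.86% and TTCNNGAA in 8.52% of all windows, each being its own reverse complement so that both strands are covered, and either was found for 17% of genes. A 3-unit element, GAANNTTCNNGAA or its reverse complement TTCNNGAANNTTC, which contain both shorter ones, was found in 0.603% of windows. Of the 6 genes with an entry, 4 held a 2-unit element (Hspa1a, Hspa1b, Hspb1 and Hsph1) and 1 a 3-unit element (Hsph1). Of 61 other chaperone, co-chaperone and HSF genes with an entry, 18 held 2 units and 4 held 3 units, namely Dnajb6, Chordc1, Hspd1 and Hspe1, which lay between 0.846 and 1.21 times the control in every library.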

How the data were processed

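The authors deposited, for each of 5 libraries, a count of reads on each of 55385 genes, with no normalization. The submitters' processing notes name STAR 2.5.1b, HTSeq (no version) and GRCm38.p4, while neither the annotation release nor the strand setting is given there or in the other sources used. Of all deposited reads, between 24.7% and 33.1% lay on no gene, between 1.26% and 1.52% were ambiguous and between 9.67% and 11.6% aligned more than once.

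From these counts, 19768 genes passed filterByExpr in edgeR 4.0.16 (R 4.3.3). TMM factors were 1.04, 0.992, 0.924, 0.991 and 1.06 for the control, 1 h, mouse 1, mouse 2 and 8 h. A quasi-likelihood model was fitted with 4 groups and 1 residual degree of freedom, at a dispersion of 0.0565 (biological coefficient of variation 0.238), and the single libraries were assumed to vary like the pair at 4 h. Adjusted p-values (Benjamini-Hochberg) were called under 0.05. Log2 fold changes used a prior count of 2. SE were computed from edgeR's F statistic and the coefficient before shrinkage. Ratios and shares are of normalized or raw counts with exact intervals, which cover counting error only. The floor was 3 counts. The tests were also run on simulated counts with known changes, whose dispersion was taken from the fit to the data. The other filters and scalings were not simulated.

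Gene positions, exon lengths and shared windows were taken from GENCODE M21 (GRCm38), which holds 55144 of the identifiers, and promoters from RefSeq (GRCm38.p6). DESeq2 1.42.0 and limma 3.58.1 served as alternatives, beside scaling by median-of-ratios factors, by library size alone or by TMM computed without mitochondrial and the 50 most abundant genes, other filters on low counts, assumed coefficients of variation, a smaller prior count, a fold of 1.5 and leaving out either library at 4 h, and Python 3.11.15 with matplotlib 3.10.9 drew the figures. The 10 genes and all gene lists were chosen with earlier results of these data known. Named besides the 10 genes and the markers were list genes at least 2-fold from the control that reached 50 normalized counts in a library, up to 2 further examples a list by highest mean level, and the 3 nearest patterns for the 3 genes of widest range. A planned gene list was left out of the results and of all totals over lists after the analysis. Summing Hspa1a and Hspa1b was chosen after seeing the data.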

Additional observations from a re-analysis of the deposited data

How the results depend on the processing

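The number of genes called depended most on the setting. At 1, 4 and 8 h, edgeR's quasi-likelihood test called 0, 1 and 0 genes (478, 2291 and 892 at an unadjusted p under 0.05). The counts were 57, 237 and 22 with library size alone, 285, 1300 and 279 without a filter on low counts, 56, 238 and 33 with DESeq2, 238, 916 and 184 when the coefficient of variation was assumed to be 0.2, and 40, 81 and 12 when it was 0.4. At least 10 counts in every library gave 1, 0 and 0, and median-of-ratios factors and limma-voom each gave 0, 0 and 0. The cause was not tested.

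Genes at least 2-fold higher than the control numbered 4118, 2563 and 5043 without a filter, 470, 483 and 559 with at least 10 counts in every library, and 2147, 2000 and 2779 with a fold of 1.5. Genes at least 2-fold lower numbered 3981, 2045 and 3515, then 173, 136 and 247, and then 1818, 1241 and 1767. Fewer or more genes enter under these filters by construction. At 4 h, library size alone gave 457 lower genes. When either library at 4 h was left out, the higher genes ranged from 1198 to 2278, the lower genes from 711 to 1312, and the heat shock genes among the higher from 2 to 6. With a fold of 1.5, 5 of the 10 genes were higher at 8 h. Leaving out a library at 4 h leaves no residual degrees of freedom, so these are values with no test.

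Under the alternatives, 326 log2 fold changes of the 10 genes were compared with the main value. Of these, 295 kept their direction and, where tested, their side of the threshold. A further 24 kept their direction and passed the threshold, 5 turned direction, and 2 kept their direction but moved furthest. The values that turned were Hsp90ab1 at 1 h (-0.04), Hsf1 at 4 h (-0.03), both with library size alone, Hsf1 at 8 h (-0.01) without a filter, and, without mouse 1 and with no test, Dnajb1 (-0.23) and Hsf1 (-0.11) at 4 h. The cause was not tested. Those that moved furthest were Hspa1a (from 3.32 to 0.06) and Hspa1b (from 3.06 to 0.13) at 4 h without mouse 1. Of 30 combinations of gene and time, 11 were called without a filter, 7 with the coefficient of 0.2, 3 with DESeq2, 2 with library size alone and 1 with 0.4. At 1, 4 and 8 h these settings called 0.871%, 3.97% and 0.852% of all tested genes without a filter, 1.2%, 4.63% and 0.931% with 0.2, 0.449%, 1.7% and 0.235% with DESeq2, 0.288%, 1.2% and 0.111% with library size alone, and 0.202%, 0.41% and 0.0607% with 0.4. The low counts of Hspa1a, Hspa1b and Hspb1 in the control limit how well their ratios are known, as their intervals show. No paired analysis was possible because the labels link no library of 1 time point to one of another.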
